A study of Bos taurus with 60 samples.

Results

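A set of 107 loci in the bovine mammary gland had a short peak of RNA on D3 after dry-off. They were chosen by their own values. For each of the 14714 loci that passed a filter on low counts, the mean log2 CPM (counts scaled by TMM to a common library size, as CPM, prior count 2) over the 12 cows was taken on each day, and a member had to rise by at least 0.8 from D-3 to D3 and to fall by at least 0.8 from D3 to D7. Of these loci 113 met both limits, which is 0.768% of the loci tested and leaves 107 members of the 25223 loci in the tables after genes that are not reported here were set aside. The rise and the fall are therefore descriptions and carry no test. All 107 members had their highest day mean on D3 over the 5 days. The choice set D3 above D-3 and D7 and asked nothing of D14 and D25, but choosing on a high D3 mean also favours D3 over those days. Over all loci tested 21.6% had D3 highest, which is not a like background, so nothing is read from it.

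The mammary gland stops secreting milk when milking stops and then involutes. Its milk-making epithelium is partly removed and its remaining layers are rebuilt before the next calving. Contractile myoepithelial cells, which squeeze milk from the alveoli, sit between that epithelium and a basement membrane of laminins, and the filling of an unmilked gland stretches these layers. The first days of involution are known for insulin-like growth factor (IGF) binding proteins that hold back IGF signalling, for AP-1 and STAT3 transcription factors, for acute-phase proteins and for turnover of matrix.

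Multiparous Holstein cows were biopsied on D-3, D3, D7, D14 and D25, and every cow gave a sample on each day, which makes 60 samples from 12 cows. From dry-off on, 6 cows were heat-stressed (HT), with shade only, and 6 were cooled (CL), with shade, fans and soakers. Both groups were still milked and untreated at D-3. The cow is the replicate, and a biopsy is a mixture of cell types, so more cells of a type and more RNA per cell cannot be told apart in any value below.

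Total counts per sample lay between 20525083 and 26183990. Of 6 listed milk protein genes, 3 could be paired with a locus, LALBA, CSN1S1 and CSN2. Only these are meant by milk protein genes below, so the shares leave out the others. At D-3 they took 40.2% to 49.8% of the counts in 5 cows (7965, 8541, 8564, 8647 and 8713) and 0.19% to 8.03% in the other 7. TMM factors on that day ranged from 0.3 to 1.21. In the member loci, 4 samples held an extreme of their day most often. Cow 8513 (HT) at D-3 held the highest of the 12 values for 73 of the 107 members and cow 8314 (HT) at D14 for 43, while cow 8686 (CL) at D3 held the lowest for 62 and cow 7965 (CL) at D14 for 54. The D14 sample of cow 7965 also had 3.36 CPM of the luminal keratin KRT19, where the median of D14 was 582, and 5396 CPM of the fibroblast gene DCN, where the median was 952. Of the genes that mark cell types, few could be paired with a locus, and none of the 13 leukocyte markers was. The D14 and D25 samples of cow 8513 deviated from their group means, across genes, much as the D-3, D3 and D7 samples of cow 8660 did (r of 0.21 to 0.72), and less as the D-3, D3 and D7 samples of cow 8513 itself (r of -0.50 to 0.21). In the reverse direction, the D14 and D25 samples of cow 8660 had r of 0.22 to 0.52 with the D-3, D3 and D7 samples of cow 8513 and of -0.02 to 0.32 with its own. Whether the labels of these cows were exchanged from D14 on was not tested. Both were HT, so group means with all cows are not touched by this, nor are changes within these cows from D-3 to D7. An exchange would touch the block on cow and any value that sets D14 or D25 of these cows against their earlier days. The D14 and D25 values without either cow would then belong to the other cow.

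The members rose by a median of 1.22 log2 units from D-3 to D3 and fell by 1.03 from D3 to D7. Over all loci tested the median changes were 0.0023 and 0.015, both upward. In fold terms the median member was 2.33 times as high on D3 as on D-3 and 2.05 times as high on D3 as on D7. The rises reached 3.35 (XLOC_013774, a locus without an ENSEMBL gene) and the falls 3.88 (MYH2). Levels spanned a wide range, from 0.608 to 5695 CPM on D3 with a median of 13.5. At D-3, 26 members were under 1 CPM on average, and on D3 3 were. A low locus could pass the filter through its D3 samples, and the limits ask for a lower D-3. This step was therefore partly set by the choice. Just inside the limits lay KRT17 with a rise of 0.81 and USP43 with 0.82, and for the fall XLOC_021076 and DPT, both at -0.81. Just outside lay TEX15 with a rise of 0.79 and XLOC_021983 with 0.75, and for the fall JUNB and MBP, both at -0.79. With edgeR's quasi-likelihood test, 76 of the 107 members were called up at D3 vs. D-3 (FDR ≤ 5%), where 6.03% of all loci were, and 56 were called down at D7 vs. D3, where 2.3% were. These contrasts chose the members, so nothing is read from these shares.

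**Figure D1:**
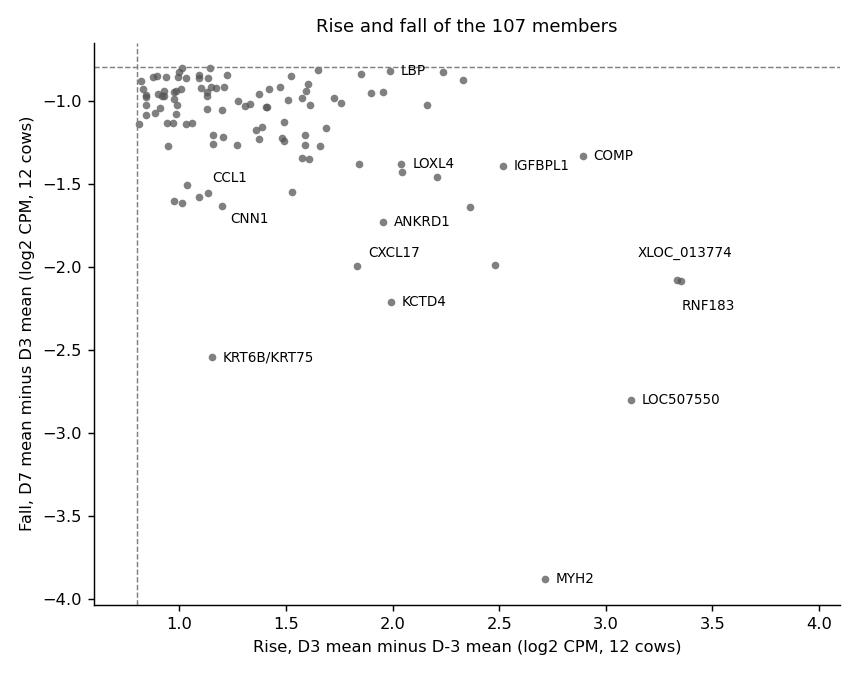
Rise from D-3 to D3 (x axis) and fall from D3 to D7 (y axis) of each of the 107 members, as differences between the means of 12 cows in log2 CPM. Each point is a member, and the dashed lines are the limits of 0.8 and -0.8 that chose them. Most members lie near the limits, and LOC507550, MYH2, XLOC_013774 and RNF183 stand away from them.

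Of the 107 members, 79 were paired with a gene symbol, 16 had an ENSEMBL identifier alone and 12 had no ENSEMBL gene. Loci that join several genes, such as KRT6B with KRT75 and KRT7 with LOC787600, count reads of all of them. In the RefSeq gene order of the ARS-UCD2.0 assembly, 78 of the 79 symbols were found, on 24 chromosomes. Some members are neighbours. IGFBP2 and IGFBP5 have 0 protein-coding genes between them, as have IGFBPL1 and LOC507550, while KRT5 and the KRT6B/KRT75 locus have 1. Whether the counting used strand is not given in the sources used here, so reads of overlapping or antisense genes could be shared, as for LOC507550 and its neighbour IGFBPL1.

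The peak was not equally strong in every cow. Averaged over the members, log2 CPM stood at 2.30 ± 0.67 before dry-off (D-3; SD over 12 cows) and at 3.73 ± 0.86 on D3. It was back at 2.53 ± 0.46 on D7, with 2.52 ± 0.63 on D14 and 2.25 ± 0.36 on D25. On D3 it ranged from 2.12 to 5.01 and at D-3 from 1.71 to 4.19, so the days overlapped. Within cows, it rose to D3 in 10 of the 12 and fell to D7 in 11. The rises were largest in cows 8564 (3.02), 8647 (2.90), 8713 (2.73) and 8541 (2.56). Cows 8513 and 8686 had lower values on D3 than on D-3, by -0.49 and -0.35, and cow 8668 changed little, by 0.12 to D3 and by 0.25 to D7. Cow 8513 was already at 4.19 on D-3. Cow 8314 had a value of 3.79 at D14, above its 3.25 on D3. The number of members whose highest value over the 5 days was on D3 ran from 23 in cow 8686 to 100 in cow 8564.

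**Figure D2:**
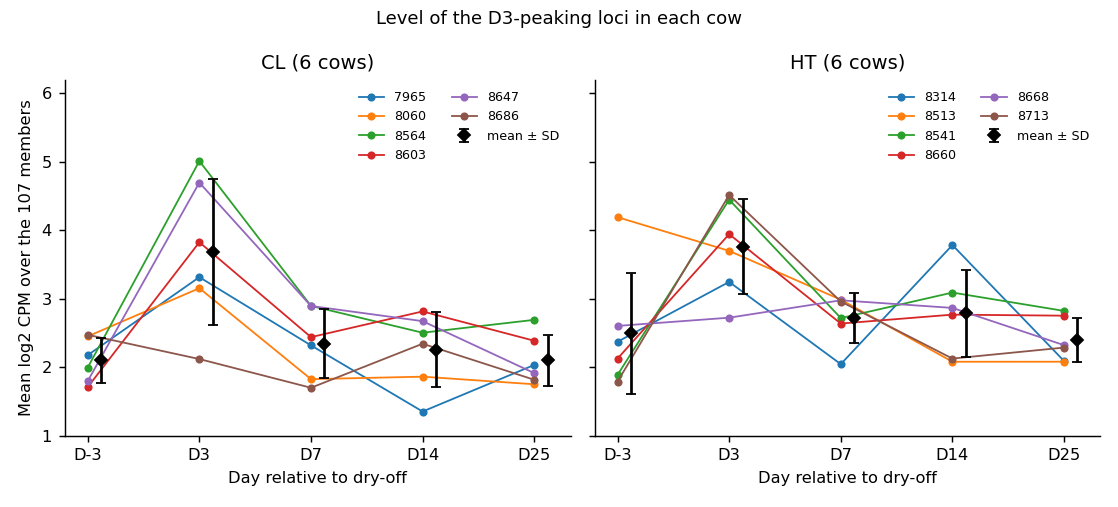
Mean log2 CPM over the 107 members on each day, with a line for each cow, CL cows on the left and HT cows on the right. Diamonds are the mean of 6 cows and bars the SD. The peak on D3 is steep in cows 8564, 8647, 8713 and 8541 and absent in cows 8686 and 8668, and cow 8513 is highest on D-3.

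The 5 cows with over 40% of their counts in milk protein genes at D-3 had rises of the member mean between 1.14 and 3.02. In the other 7 cows the rises lay between -0.49 and 2.12. Over the members, the median rise was 2.12 in those 5 cows and 0.64 in the other 7, and the median fall was -1.43 and -0.81. All 107 members rose and fell in the means of the 5 cows and 104 did so in the means of the 7. The means over these same cows chose the members, so these counts were partly fixed by the choice. No share over all loci is given beside them, and nothing is read from them. The sizes differed between these sets of cows. With the 7 cows alone, 111 loci met the same limits and 30 of them were members, a setting chosen after seeing the data. Because the milk protein shares form separate clusters of cows, no correlation with the rise is given. The part of the milk protein share in the size of the peak was not tested.

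**Figure D3:**
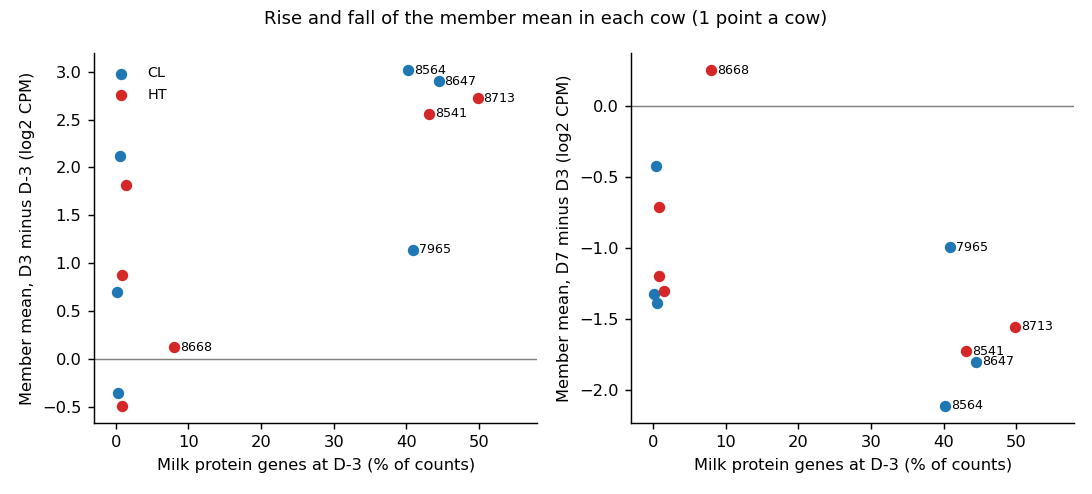
Change in the mean log2 CPM of the 107 members from D-3 to D3 (left) and from D3 to D7 (right) against the share of counts in milk protein genes at D-3, with 1 point for each cow. Milk protein genes are LALBA, CSN1S1 and CSN2. The 4 highest rises belong to cows with over 40% milk protein counts, and cow 7965 with 40.9% rose by 1.14.

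Single members were on the rise in a median of 10 cows and on the fall in a median of 10, and rose and then fell in a median of 9 of the 12. PLP2, a small membrane protein, was the 1 member that did both in all 12 cows. Its level ran from 36.8 to 95.8 CPM at D-3 (median 49), from 50.2 to 271 on D3 (median 105) and from 39.6 to 80.3 on D7 (median 57.2), so its days overlapped although each cow moved the same way. At least 10 cows rose and fell in 28 of the members.

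LOC507550, an uncharacterized gene, had the largest peak of the set, taken as the smaller of rise and fall (rise 3.12, fall -2.80). Its CPM ran from 0.866 to 36.7 at D-3 (median 2.71), from 3.32 to 295 on D3 (median 21.3), from 0.958 to 19.3 on D7 (median 4.25), from 0.336 to 66.8 on D14 (median 4.9) and from 0.722 to 13.6 on D25 (median 2.14). The highest samples on D3 were those of cow 8713 and cow 8647 (169 CPM), and the 36.7 of D-3 and the 66.8 of D14 were cow 8513 and cow 8314. D3 overlapped with each of the other days.

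MYH2, the myosin heavy chain of fast skeletal muscle fibres, came next (rise 2.71, fall -3.88). It ran from 0 to 2.59 CPM at D-3 (median 0.571), from 0.451 to 16.7 on D3 (median 3.65) and from 0 to 1.16 on D7 (median 0.147). On D14 cow 8314 had 9.65 CPM and the other 11 cows had at most 0.457. Of the 12 skeletal muscle markers only MYH2 and MYH7 were paired, and MYH7 had a rise of -0.05 and a fall of 1.03. Whether muscle fibres were in the D3 biopsies was not tested.

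XLOC_013774, a locus with no ENSEMBL gene, rose by 3.35 and fell by 2.08. It ran from 0 to 66.5 CPM at D-3 (median 0.305), from 0.082 to 250 on D3 (median 2.47) and from 0.116 to 17.7 on D7 (median 0.741). On D3, 4 cows (8541, 8564, 8647 and 8713) were above 100 CPM and the other 8 were at or below 6.62. Its number is next to that of XLOC_013773, another member without an ENSEMBL gene, with a rise of 2.48 and a fall of -1.99.

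RNF183, a RING-finger ubiquitin ligase of internal membranes, rose by 3.33 and fell by 2.08. It ran from 0 to 28.8 CPM at D-3 (median 0.582), from 1.55 to 78.2 on D3 (median 5.98) and from 0.387 to 6.23 on D7 (median 2.12). Cow 8513 held the 28.8, and the other cows had at most 2.89 CPM at D-3. KCTD4, a BTB-domain protein, was the fifth by peak, with a rise of 1.99 and a fall of -2.21, at levels between 0 and 6.67 CPM at D-3 (median 0.091) and between 0 and 28.2 on D3 (median 0.467). KCTD4 fell from D3 to D7 in 5 of the 12 cows only, and its change from D3 to D7 was 0.024, in the other direction, without the 5 cows named for their milk protein counts.

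**Figure D4:**
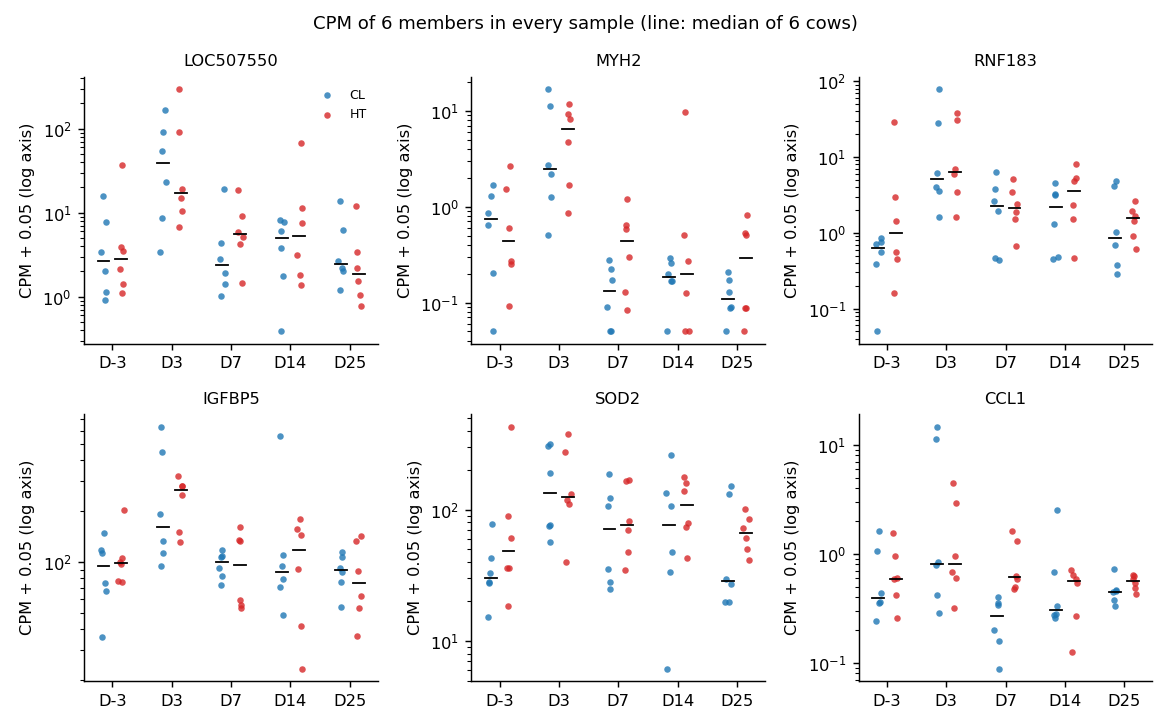
CPM of LOC507550, MYH2, RNF183, IGFBP5, SOD2 and CCL1 in each of the 60 samples by day, on a log axis after adding 0.05, with CL cows in blue and HT cows in red. Short lines are medians of 6 cows. D3 is the highest day by median in all of these members, and the spread between cows covers most of the step.

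The contractile genes made up the largest named group, with 6 members among the 15 genes of that list that were tested. Over the list, 9 of 15 were called up at D3 vs. D-3 (6.03% of all loci) and 10 were called down at D7 vs. D3 (2.3%), while 0 were called down at D3 (9.04%) or up at D7 (0.625%). These shares over all loci apply to the counts of every list below, but they are not a like background. Gene symbols came only from the supplementary lists of the study, which include the genes it called in these same contrasts. Paired genes could therefore be called more often than all loci, and no share over paired loci is given. Each list was tested only in the genes that could be paired with a locus, and it includes members that the same contrasts chose, so its count was partly fixed by the choice. ACTA2, smooth muscle actin, ran from 95.5 to 897 CPM at D-3 (median 465), from 264 to 1412 on D3 (median 833) and from 244 to 641 on D7 (median 381). TAGLN, an actin-binding protein, went from 315 ± 168 CPM at D-3 to 685 ± 358 on D3 and 289 ± 128 on D7. CNN1, calponin, stood at 51.8 ± 45.8, 111 ± 69.3 and 33.3 ± 21. Both are bound to actin in smooth muscle and myoepithelial cells. CSRP1, a LIM-domain partner of actin, had 116 ± 42.8, 231 ± 118 and 120 ± 48.1 CPM on these days. CRYAB, a small heat shock protein of contractile cells, had 77.6 ± 34.6, 151 ± 83.3 and 70.6 ± 17 CPM, and MYLK2, a myosin light chain kinase known from skeletal muscle, had 0.922 ± 0.61, 3.21 ± 2.84 and 1.06 ± 0.607. The list also held genes that missed the limits, such as MYH11 (rise 0.26, fall -0.54), the smooth muscle myosin heavy chain, and TPM2 (rise 0.73, fall -0.82), a tropomyosin.

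The IGF axis gave 3 members among 6 tested genes, and 4 of the 6 were called up at D3 and 3 down at D7. IGFBP5, which binds IGFs and is a known early involution gene, ran from 35.8 to 203 CPM at D-3 (median 98.6), from 95 to 634 on D3 (median 221), from 53.4 to 160 on D7 (median 99.9), from 23.2 to 559 on D14 (median 92.4) and from 36.3 to 142 on D25 (median 87.4). The 203 of D-3 belonged to cow 8513 and the 559 of D14 to cow 7965, and the days overlapped. IGFBP2, another binding protein, went from 20.6 ± 15.1 CPM to 59.3 ± 36.5 on D3 and 22.7 ± 9.21 on D7. IGFBPL1, a related secreted protein, was low, at 0.973 ± 2.3, 5.52 ± 8.88 and 0.792 ± 0.413 CPM. IGF1 itself had differences of 0.10 from D-3 to D3 and 0.84 from D3 to D7, and its receptor IGF1R had 0.37 and -0.31, so the ligand and the receptor missed the limits. IGFBP7, the remaining tested gene, had -0.13 and 0.36. The genes called down were the 3 members, which also made up all but IGF1R of those called up.

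FOSL1, a subunit of AP-1, was the member among 5 tested AP-1 and immediate early genes. It stood at 0.572 ± 0.515 CPM at D-3, 2.21 ± 2.69 on D3 and 0.683 ± 0.567 on D7. All 5 genes of the list were called up at D3 and 2 were called down at D7. JUNB, another AP-1 subunit, just missed the limit on the fall, and KLF6, a zinc finger factor, rose by 0.67 and fell by 0.89.

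Basal and junction genes formed a further group. CD151, a tetraspanin that holds laminin-binding integrins, went from 245 ± 116 CPM at D-3 to 531 ± 409 on D3 and 203 ± 73.8 on D7, and KRT5, the keratin of basal epithelium, from 326 ± 137 to 655 ± 287 and 321 ± 110. Of the 6 tested genes of the hemidesmosome and basement membrane list, 3 were members, 5 were called up at D3 and 3 down at D7. The laminin chain LAMB1 had differences of -0.24 and 0.39, while LAMA3 and the integrin ITGA3 missed the limit on the fall, at -0.38 and -0.36. Of 4 tested connexins, 2 were members, 3 were called up at D3, and 2 were called down and 1 up at D7. GJB5, a connexin and so a subunit of gap junctions, had 0.695 ± 0.463, 2.44 ± 2.09 and 0.642 ± 0.345 CPM on these days. GJB1, another connexin, had differences of -1.93 from D-3 to D3 and 2.14 from D3 to D7 and was called up at D7 only. The members that are known from stratified epithelium and skin, ALOX12E, TMPRSS13, CTSV and SFN, were the 4 genes that could be tested of 18 listed. All 4 were called up at D3 and 1, the cathepsin CTSV, was called down at D7. SFN, stratifin, had 18.2 ± 18.2 CPM at D-3, 43.5 ± 29.7 on D3 and 19.9 ± 10 on D7, and the lipoxygenase ALOX12E had 9.13 ± 4.65, 27.2 ± 17.5 and 11.8 ± 5.89. CTSV had 70.5 ± 29.1, 174 ± 158 and 64.9 ± 13.1 CPM, while the membrane protease TMPRSS13 stayed low at 0.391 ± 0.447, 1.19 ± 0.78 and 0.494 ± 0.386.

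Of 12 tested genes of the matrix and its turnover, 5 were members, 9 were called up at D3 and 1 down, and 5 were called down at D7 and 1 up. COMP and THBS1 are thrombospondins. COMP went from 0.999 ± 1.41 CPM at D-3 to 9.28 ± 10.6 on D3 and 2.8 ± 2.51 on D7, with a rise in 11 cows, and THBS1 from 330 ± 291 to 829 ± 575 and 342 ± 139. LOXL4, which cross-links collagen and elastin, had 0.991 ± 1.54, 4.27 ± 4.16 and 1.04 ± 0.711 CPM. VWA1, a protein of pericellular matrix, had 99.8 ± 59.5, 230 ± 135 and 105 ± 30.6, and ADAMTSL2, a secreted glycoprotein that binds fibrillin microfibrils, had 9.51 ± 4.17, 22.2 ± 15.1 and 11.3 ± 6.75. FN1, fibronectin, had differences of 1.36 and -0.20, and the protease inhibitor TIMP4 was the gene called down at D3, with a difference of -1.18. COMP was not among those called down at D7.

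Signalling and defence genes were the last of the groups. ERBB3, the neuregulin receptor with a weak kinase, had 266 ± 187 CPM at D-3, 689 ± 256 on D3 and 329 ± 48 on D7. Its partners EGFR (rise 0.91, fall -0.48) and ERBB2 (rise 1.14, fall -0.50) missed the limit on the fall. The neuregulin NRG2 went the other way, with differences of -1.38 from D-3 to D3 and 1.72 from D3 to D7. Of 4 tested ERBB genes, 3 were called up at D3 and 0 down at D7. LBP, which carries bacterial lipopolysaccharide, had 112 ± 148, 375 ± 351 and 189 ± 122 CPM. With IGFBP5 it gave 2 members of 5 tested STAT3 and acute-phase genes, all 5 called up at D3 and 1 called down at D7. TNFRSF12A, the receptor of the cytokine TWEAK, had 11.1 ± 10.8, 43.3 ± 50.6 and 11.9 ± 6.37 CPM.

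SOD2, the mitochondrial superoxide dismutase and an NF-kB target, ran from 15.2 to 429 CPM at D-3 (median 35.9), from 39.6 to 378 on D3 (median 124), from 25 to 188 on D7 (median 76.4), from 6.1 to 261 on D14 (median 92.7) and from 19.8 to 152 on D25 (median 55.5). Its highest value of all was thus at D-3, in cow 8513, and the days overlapped. Of the 6 tested genes of the TNF receptor and NF-kB list, 5 were called up at D3 and 1 down at D7, and SOD2 was called in neither. SAT1, which acetylates polyamines, had 656 ± 138 CPM at D-3, 1450 ± 791 on D3 and 632 ± 79 on D7 and rose and fell in 11 of the cows. CYBRD1, a ferric reductase, had 240 ± 179, 546 ± 124 and 305 ± 53. These were 3 members of 9 tested genes for oxidative stress and selective autophagy, 6 called up and 1 down at D3 and 4 down at D7. The chemokine list had 2 members of 5 tested genes. CXCL17, a mucosal chemokine, had 4.97 ± 4.99, 12.9 ± 11.2 and 2.85 ± 1.78 CPM and fell in all 12 cows, while CXCL12 and CXCL13, which draw lymphocytes, had differences of -0.64 and -1.33 from D-3 to D3 and 0.68 and 2.51 from D3 to D7. Of the 5, 2 were called up and 1 down at D3, and 3 down and 2 up at D7. The most abundant member was the complement protein C3, at 2353 ± 2416 CPM at D-3, 5695 ± 6766 on D3 and 2219 ± 2544 on D7.

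After D7 the members had day means around their D-3 level. The D14 mean of a member differed from its D-3 mean by a median of 0.18 and the D25 mean by -0.11. Of the 107, 60 were within 0.5 of their D-3 mean on D14 and 75 on D25. XLOC_015557 stayed highest above it, by 2.199, and LGI2 was farthest below, by -1.60.

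D25 vs. D14 was the comparison over time that used no day of the rule. The members had lower D25 than D14 means by a median of 0.28 log2 CPM (median difference -0.28), and 80 of the 107 were lower, while the median over all loci was 0.017. On the scale of edgeR's fold changes the median was -0.40 and 97 were lower. Without cow 8314, which was high at D14, the median was -0.16 with 69 members lower. Without any other cow it stayed between -0.35 and -0.25.

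With edgeR's quasi-likelihood test, 1 member was called for D25 vs. D14 at FDR ≤ 5%, where 0.0612% of all loci were. A less stringent limit for edgeR's test took an unadjusted p no higher than 0.005 together with an absolute log2 fold change ≥ 0.5. It called 5 members, all of them lower on D25 (0.754% of all loci), and 16 had an unadjusted p under 0.05, all lower (3.23% of all loci). The 3 members with the smallest p were unnamed. XLOC_005657 (ENSBTAG00000004206) had a log2 fold change of -3.26 ± 0.72 (SE, edgeR FDR = 0.0452), XLOC_023969 (ENSBTAG00000018810) of -2.80 ± 0.63 (edgeR FDR = 0.0537) and XLOC_002822 (ENSBTAG00000017500) of -2.49 ± 0.71 (edgeR FDR = 0.294). All 3 rested on the D14 sample of cow 7965. Without that cow they were at -0.09, -0.43 and 0.17. Then 0 members passed either the FDR or the less stringent limit, against 0 and 9 of all loci. A block on cow also took the FDR call away, leaving 0 members. It was lost as well without 8060, 8314, 8541, 8564, 8647, 8668 or 8713, each left out alone.

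HT and CL cows were compared on each day, to ask whether heat stress altered the peak. On D3, at the top of the peak, the median of the members' log2 fold changes for HT vs. CL was 0.06 and 58 of 107 were higher in HT. Single members ran from -1.55 to 1.81, so the median near 0 does not show that each was alike in both treatments. At FDR ≤ 5%, edgeR called 0 members on any day, as it called 0% of all loci on each. The less stringent edgeR limit called 0 members on D3 (0.0204% of all loci), 1 on D7 (0.319%), 0 on D14 (0.0544%), 0 on D25 (0.0408%) and 0 on D-3 (0.0544%). At an unadjusted p under 0.05 the members called were 1 on D3 (0.659% of all loci), 12 on D7 (4.57%), 6 on D14 (1.68%), 2 on D25 (2.26%) and 11 on D-3 (2.03%). DESeq2 called 0, 2, 0 and 0 members at the less stringent limit on D3, D7, D14 and D25, against 12, 116, 22 and 30 of all loci. Its result for D-3 is not given here. On D14, a fit of all 60 samples called 4 members and 70 loci at that limit, where the fit of that day alone called 0 members and 8 loci.

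After the peak the members lay higher in HT than in CL by a median log2 fold change of 0.25 on D7 (80 of 107 higher), 0.48 on D14 (81) and 0.23 on D25 (76). The median was 0.54 on D-3, before the treatments began, with 90 higher. On the log2 CPM scale, the D-3 median of 0.37 went to 0.05 without cow 8513, and the D14 median of 0.63 went to 0.29 without cow 7965. On D3 the median of 0.05 ran from -0.21 without cow 8686 to 0.33 without cow 8564. On D7 and D25 the medians stayed above 0 with each cow left out, at 0.15 to 0.40 and 0.14 to 0.40. Members are not replicates of a treatment, and these medians carry no test.

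**Figure D5:**
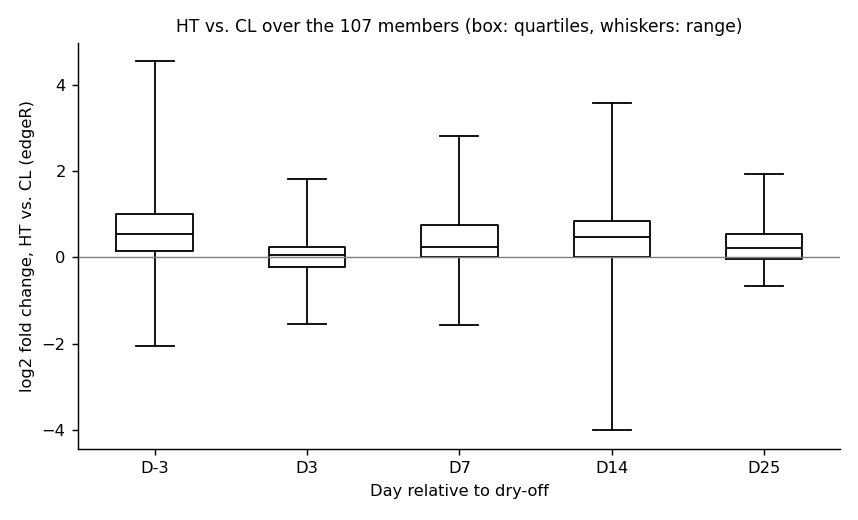
log2 fold change of HT vs. CL over the 107 members on each day, from edgeR. Boxes show the quartiles with the median as a line, and whiskers reach the lowest and highest member. The median is at 0.06 on D3 and at 0.54 on D-3, before the treatments.

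CCL1, a chemokine that attracts T cells and monocytes, was the member called on D7. In CL cows its CPM on D7 was 0.354, 0.287, 0.0383, 0.301, 0.151 and 0.109 (cows 7965, 8564, 8060, 8686, 8647 and 8603). In HT cows it was 0.426, 0.544, 1.25, 1.57, 0.445 and 0.575 (cows 8541, 8314, 8513, 8713, 8668 and 8660). The groups did not overlap, but the share of all loci without overlap on D7 is not given, so nothing is read from that. The 0.319% given above is the background for the edgeR call alone. The log2 fold change was 1.94 ± 0.52 (SE, edgeR, unadjusted p = 0.00247, FDR = 0.959), and the two-sided exact permutation test gave p = 0.00216, the smallest that 6 against 6 cows allow. CCL1 was picked by its call on the same values, so the exact p makes no allowance for that choice and is not independent of it. The edgeR call was lost without cow 8513, 8603, 8647 or 8713, with log2 fold changes of 1.77, 1.81, 1.87 and 1.62, and in a fit of all 60 samples, with 1.93. At under 2 CPM these are few reads. On D3 the highest CCL1 values were in CL cows 8647 (14.6) and 8564 (11.2), and over the other 10 cows it ran up to 4.39.

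The treatment by time interaction asked whether the rise or the fall differed between HT and CL. At FDR ≤ 5% edgeR called 0 members for the rise and 0 for the fall (0% of all loci). The less stringent edgeR limit called 1 member for the rise (0.034% of all loci) and 1 for the fall (0.0068%), and at an unadjusted p under 0.05 there were 8 (0.924%) and 2 (0.306%). The call for the rise was RNF183, with a smaller rise in HT by a log2 fold change of -3.95 ± 1.35 (SE, edgeR unadjusted p = 0.00496, FDR = 0.9997). In mean log2 CPM its rise was 4.12 in CL and 2.54 in HT. The 28.8 CPM of cow 8513 at D-3 is in that difference, and the count of calls for the rise was 0 without cow 8513 and also 0 without 7965, 8314, 8564, 8603, 8647, 8660 or 8668. CCL1 was the call for the fall, with a smaller fall in HT by 3.48 ± 1.03 (SE, edgeR unadjusted p = 0.00138, FDR = 0.99999). The count for the fall was 0 without cow 8513, 8564 or 8647. A block on cow gave 0 members for the rise and 1 for the fall, against 12 and 1 of all loci. DESeq2 called 0 members for the rise and 0 for the fall at FDR ≤ 5%, against 0 and 1 of all loci. At the less stringent limit it called 1 and 1, against 8 and 5 of all loci.

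Applied to each treatment alone, the limits were met by 160 loci in CL cows (1.09% of all loci) and 108 in HT cows (0.734%). They shared 68, which is 42.5% of the CL loci and 63% of the HT loci. Of the 107 members, 92 met the limits in CL, 79 in HT and 65 in both. The loci chosen in CL had a median rise of 0.999 and a median fall of -0.78 in HT, which was not used to choose them, and 152 of the 160 rose there. Of all loci, 51.4% rose in HT. The loci chosen in HT had a median rise of 1.23 and a median fall of -1.02 in CL, and 107 of the 108 rose there.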

How the data were processed

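RNA-seq of mammary biopsies was deposited as 1 table of raw read counts per sample over 25223 assembled loci. Per the labels and the study's methods, the authors trimmed reads (Trim Galore 0.4.1), aligned them with TopHat2 2.0.13, assembled loci with Cufflinks 2.2.1 and made these counts with HTSeq. The build is named as bosTau7 in the methods and UMD3.1 in the submitters' notes, so no coordinates are given. Total counts were 20525083 to 26183990.

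The 14714 loci that reached 1 CPM in 6 or more of the 60 samples were scaled by TMM and tested with edgeR 4.0.16 quasi-likelihood F-tests in R 4.3.3, with FDR over all of them. DESeq2 1.42.0 was an alternative. Day contrasts used all cows without a block. Samples of 1 cow deviated together (mean r 0.293 over 120 pairs, against -0.025 between cows), since each cow was sampled on every day, so the block on cow is the paired fit. The members and gene lists were chosen with earlier results of these data known. Members named in the text were the 5 with the largest peak (the smaller of rise and fall), members of the lists, and members called. PLP2, C3, LGI2, XLOC_015557, XLOC_013773 and the list genes outside the set were named after their values were seen. Gene symbols were paired for 3033 loci, from the supplementary lists of the study alone. The fits were tested on simulated data. Promoter and protein sequences were not analysed here, and 8 genes set aside from the rule and a few members are not reported here.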

Additional observations from a re-analysis of the deposited data

Results flagged for a closer look

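In each group of 6 cows on a day, a cow was picked out where its gap to the nearest other cow exceeded Dixon's critical value of 0.625 times the range. Of 70 groups checked, 7 did so. Chance gives about 1 in 20 for independent groups, but these share samples and members, so no excess is read from the count. All values are log2 CPM. Over the member mean, HT cow 8513 was high at D-3, at 4.193 with the next cow at 2.60, and HT cow 8314 was low at D7, at 2.046 with the next at 2.64. Cow 8513 at D-3 was also high for LOC507550, at 5.203 (next 1.97), and for IGFBP5, at 7.663 (next 6.72). CL cow 7965 at D14 was low for MYH2, at -3.554 (next -2.31), and high for IGFBP5, at 9.127 (next 6.77). The same cow at D-3 was low for RNF183, at -3.554 (next -1.24). Both values of -3.554 are 0 counts, placed there by the prior count, so the size of these gaps depends on it.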

How the results depend on the processing

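The limits that chose the 107 members gave 107 loci with DESeq2's size factors. They gave 107 also with TMM without LALBA, CSN1S1 and CSN2, and 117 with library size alone, of which 90 were members. A filter of 1 CPM in at least 12 samples gave 98 loci, all of them members, and a prior count of 0.5 gave 116 with 107 members. Medians over cows gave 112 loci with 73 members, and leaving out 1 cow gave 95 to 149 loci. For D25 vs. D14, the count of 1 went to 0 with library size alone, 2 without the filter and 0 under a block on cow, and lay between 0 and 1 with each cow left out. For HT vs. CL on D7, the count of 1 went to 2 with DESeq2 and 0 in a fit of all 60 samples, and between 0 and 4 with each cow left out. On D14 it went from 0 to 4 in the fit of all 60 samples, in which the loci called went from 8 to 70, and on D25 it lay between 0 and 2 with each cow left out. For the rise, the interaction count of 1 went to 0 without milk protein genes in TMM and 0 under a block on cow, and between 0 and 1 with each cow left out. For the fall it lay between 0 and 1. Single values changed sign for KCTD4, whose fall was 0.0238 without the 5 milk-rich cows (a setting chosen after seeing the data), and for XLOC_002822, which lay between -3.00 and 0.171 with each cow left out, the latter without cow 7965. XLOC_005657 was at -0.128 in DESeq2. Of 1548 single values, 1535 kept direction and side of the threshold, 11 lost the call and 2 changed sign. Most of them had no test and so no call to lose, such as the fall of KCTD4. Of these, 1475 kept their direction and 1 changed sign. Among the values with a test, 60 stayed the same, 11 lost the call and 1 changed sign. The causes were not tested. Loci under 1 CPM rest on few reads, and 6 cows a group limit the treatment comparisons.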
